A study of Mus musculus with 16 samples.

Results

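The nuclear-encoded genes of the respiratory chain were followed in green-labelled astrocytes and neurons of the mouse neocortex. The members were the protein-coding genes whose symbols start with Ndufa, Ndufb, Ndufc, Ndufs, Ndufv, Sdh (A to D), Uqcr, Cox4i, Cox5, Cox6, Cox7, Cox8 or Atp5, found by matching the Ensembl identifiers of the count files to the GENCODE M21 annotation. This gave 93 genes of 53379 in the files. Complex I held 38 of them, complex II 4, complex III 8, complex IV 18 and ATP synthase (complex V) 17, and the remaining 8 were Ndufaf genes, which encode assembly factors of complex I that are not part of the finished enzyme. Of the members, 9 lie on chromosome 7 and 3 on the X chromosome.

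All libraries came from the neocortex of mice at postnatal day 4, 1 animal per library. The labels give the strain as CD1, and the study's methods a mixed background of C57BL/6 and CD1. Mosaic analysis with double markers (MADM) recombines a pair of split fluorescent markers between homologous chromosomes, here on chromosome 7, where Eed also lies, with Cre driven by Emx1 in the dorsal telencephalic lineage. Eed encodes a subunit of PRC2, a Polycomb complex that puts a repressive methyl mark on histone H3. All animals carried MADM7-GT/TG, Emx1-cre and XGFAP-lacZ, a lacZ transgene under the human GFAP promoter, and only green (GFP+) cells were sorted. LacZ staining set apart GFP+/lacZ+ cells, called astrocytes, from GFP+/lacZ- cells, called neurons. In control-MADM mice (wild type for Eed) the green cells were Eed+/+. In Eed-MADM mice (heterozygous for Eed) they were Eed-/- and lay in tissue that was largely heterozygous. In both genotypes a green cell carried 2 paternal copies of chromosome 7, so the 9 members there had a uniparental origin in every group. There were 5 Eed+/+ astrocyte, 5 Eed-/- astrocyte, 2 Eed+/+ neuron and 3 Eed-/- neuron libraries, and 1 further Eed-/- library whose labels name both cell types entered no group.

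The respiratory chain sits in the inner mitochondrial membrane. Complex I takes electrons from NADH and complex II from succinate, complex III passes them on to cytochrome c, and complex IV hands them to oxygen. Complexes I, III and IV pump protons, and ATP synthase uses the resulting gradient to make ATP. Most subunits are encoded in the nucleus and imported, and the mitochondrial genome supplies a small set of core subunits of every complex except complex II. Neurons depend on this pathway for signalling, whereas astrocytes are known for a large glycolytic capacity beside it.

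In the 15 grouped libraries, reads on genes numbered 211736 to 3178529, and 26.1 to 76.6% of the reads aligned uniquely. Of these libraries, 10 had at least 1000000 uniquely aligned reads and at least 60% unique alignment, limits that the study applied to its embryonic libraries. They are called libraries within the limits. The other 5 were Eed+/+ neuron replicate 2, the library labelled Eed+/+ astrocyte replicate 3 and Eed-/- astrocyte replicates 1, 3 and 4. Eed itself reached 3.71 to 76.2 TMM-scaled CPM in the astrocytes and 64.9 and 81.1 in the neurons of control-MADM mice, against 0 to 17.3 and 16.4 to 38.0 in those of Eed-MADM mice. The 3.71 (2 reads) belongs to the library labelled Eed+/+ astrocyte replicate 3 and lies inside the range of the Eed-/- astrocytes, whereas the other 4 Eed+/+ astrocyte libraries were at 28.4 to 76.2. In that library the summed level of 10 neuron markers (3854) also exceeded that of 10 astrocyte markers (3065), so both values go against its label. TMM-scaled CPM are counts per 1000000 reads on genes, after edgeR's TMM scaling between libraries. The summed level of 10 astrocyte markers was 1457 to 27324 TMM-scaled CPM in the astrocyte libraries and 6534 to 9070 in the neuron libraries, where all 10 had reads. The summed level of 10 neuron markers was 3.38 to 3854 in astrocyte and 1055 to 2792 in neuron libraries. Both ranges overlapped. In all 5 neuron libraries the astrocyte marker sum exceeded the neuron marker sum. By this comparison the markers of every neuron library also go against its label. Within the limits the astrocyte marker sums did not overlap, at 10696 to 27324 in astrocyte and 6534 to 8799 in neuron libraries, whereas the neuron marker sums did. The summed level of 7 markers of the oligodendrocyte lineage was 1336 to 5167 within the limits and 135 to 5167 over all 15 libraries, and in 4 of the 5 neuron libraries it exceeded that of the neuron markers. Endothelial markers (6 genes) reached at most 48.3 and intermediate progenitor markers (4 genes) at most 790. The part of these cells in the results was not tested, and the 2 sorted classes are named by their gate. Eed-/- astrocyte replicates 1 and 3 also held microglial markers (8 of 8 and 7 of 8 genes with reads, summed levels of 8535 and 3351, against at most 392 in the others), and replicates 1 and 4 erythroid markers (4 and 5 of 5 genes, 5723 and 7801, against at most 62.0 in the other grouped libraries). In replicate 1 both sums exceeded that of the astrocyte markers (1457), and in replicate 4 the erythroid sum exceeded it (4619), with 0 reads of Aqp4 and Gfap, so the markers of these 2 libraries also go against their labels. They are named by their labels, and all 3 lie outside the limits. In bulk libraries, fewer cells of a type and less RNA per cell cannot be told apart.

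Upstream sequences were compared for motifs long known at genes of oxidative phosphorylation. Of the 93 members, 76 had an entry in the RefSeq table of build GRCm38.p6, and the 250 bases before the start were searched on both strands. The NRF1 motif CGCATGCG stood in 8 members, 10.5%, against 1.75% of all 27025 genes in the table and 2.32% of its 17492 protein-coding genes. The core motif of ETS factors such as GABP, CCGGAAG, stood in 14 members, 18.4%, against 7.83% and 10.2%. The YY1 motif AAGATGGC stood in 1 member, 1.32%, against 1.83% and 1.77%. At least 1 of the 3 motifs was found in 19 members, with no overlap between matches, and a match is a description of letters, not of binding. The upstream sequences shown here belong to the member with the highest level per length in complexes II, III, IV and V and among the assembly factors, and to Cox6b1 and Cox6b2, alternative forms of a complex IV subunit whose values by genotype are described in full. NRF1 and ETS matches are in capitals.
Sdhb (chr4:140961021-140961270, + strand, GRCm38.p6): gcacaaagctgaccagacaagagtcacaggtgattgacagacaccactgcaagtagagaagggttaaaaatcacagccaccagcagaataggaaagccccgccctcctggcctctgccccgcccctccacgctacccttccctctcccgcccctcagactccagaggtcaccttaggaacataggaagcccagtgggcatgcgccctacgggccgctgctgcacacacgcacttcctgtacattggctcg
Uqcr10 (chr11:4704345-4704594, - strand, GRCm38.p6): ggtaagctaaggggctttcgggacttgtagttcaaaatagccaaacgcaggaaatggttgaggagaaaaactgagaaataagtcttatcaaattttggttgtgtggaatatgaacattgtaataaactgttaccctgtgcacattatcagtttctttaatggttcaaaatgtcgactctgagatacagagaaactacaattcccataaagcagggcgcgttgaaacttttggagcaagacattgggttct
Cox6a1 (chr5:115348959-115349208, - strand, GRCm38.p6): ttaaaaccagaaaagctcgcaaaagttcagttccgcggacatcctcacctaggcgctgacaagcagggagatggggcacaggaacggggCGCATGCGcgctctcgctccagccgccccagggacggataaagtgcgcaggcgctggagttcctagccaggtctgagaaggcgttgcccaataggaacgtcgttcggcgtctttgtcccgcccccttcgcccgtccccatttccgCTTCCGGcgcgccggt
Atp5k (chr5:108434400-108434649, - strand, GRCm38.p6): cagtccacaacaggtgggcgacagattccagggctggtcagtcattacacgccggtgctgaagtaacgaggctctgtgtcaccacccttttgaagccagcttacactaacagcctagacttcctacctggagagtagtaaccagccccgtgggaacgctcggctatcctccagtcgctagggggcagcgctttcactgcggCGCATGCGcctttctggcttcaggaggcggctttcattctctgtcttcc
Ndufaf8 (chr11:120098684-120098933, + strand, GRCm38.p6): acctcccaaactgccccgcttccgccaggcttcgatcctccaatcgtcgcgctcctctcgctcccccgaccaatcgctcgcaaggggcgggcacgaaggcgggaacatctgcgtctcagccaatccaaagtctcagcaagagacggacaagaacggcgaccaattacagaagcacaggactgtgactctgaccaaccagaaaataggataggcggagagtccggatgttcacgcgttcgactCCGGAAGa
Cox6b1 (chr7:30626115-30626364, - strand, GRCm38.p6): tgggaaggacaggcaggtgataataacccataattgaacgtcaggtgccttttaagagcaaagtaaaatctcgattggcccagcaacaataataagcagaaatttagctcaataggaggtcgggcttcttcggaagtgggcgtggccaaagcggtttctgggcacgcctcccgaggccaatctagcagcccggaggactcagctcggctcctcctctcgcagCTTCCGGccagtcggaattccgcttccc
Cox6b2 (chr7:4753095-4753344, - strand, GRCm38.p6): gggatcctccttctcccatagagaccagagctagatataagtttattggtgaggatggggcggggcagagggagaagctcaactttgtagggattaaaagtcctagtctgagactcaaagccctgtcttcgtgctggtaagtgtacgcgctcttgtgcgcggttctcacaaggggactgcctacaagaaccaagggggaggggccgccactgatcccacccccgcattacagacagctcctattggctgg
Of these 7 windows, Cox6a1 held an NRF1 and an ETS match, Atp5k an NRF1 match, and Cox6b1 and Ndufaf8 an ETS match. The windows of Cox6b2, Uqcr10 and Sdhb held none of the 3 motifs.

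The respiratory chain members as a whole took 1.35 to 2.88% of the reads on genes in every grouped library but 1. In Eed+/+ astrocytes they made up 1.93, 2.10, 2.12, 2.20 and 1.85% of the reads on genes in replicates 1 to 5 (2.04% ± 0.145, SD, n = 5), and in Eed-/- astrocytes 1.35, 2.03, 1.77, 1.72 and 1.74% (1.72% ± 0.240, SD, n = 5). In Eed+/+ neurons the share was 2.20 and 0.461%, and in Eed-/- neurons it was 2.19, 2.88 and 1.56% (2.21% ± 0.657, SD, n = 3). Eed+/+ neuron replicate 2 stood far below every other library, with a 95% Wilson interval of 0.439 to 0.484%, and Eed-/- neuron replicate 2 was the highest, at 2.85 to 2.90%. These intervals cover counting error only. Over the 10 libraries within the limits the share was 2.07% ± 0.355 (SD), from 1.56 to 2.88%. Outside the limits Eed+/+ neuron replicate 2 was at 0.461%, and the other 4 libraries ran from 1.35 to 2.12%.

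The reads were divided among the complexes in nearly fixed proportions. Within the limits, complex I took 34.5% ± 1.23 of the member reads, ATP synthase 27.5% ± 1.38, complex IV 21.2% ± 0.982, complex III 11.5% ± 1.20, complex II 3.93% ± 0.344 and the assembly factors 1.49% ± 0.254 (SD, n = 10). Over all 15 grouped libraries complex IV ranged from 13.6 to 31.4% and complex II from 0 to 4.38%. The 0 belongs to Eed-/- astrocyte replicate 4, in which none of the 4 succinate dehydrogenase genes had a read among 211736 reads on genes.

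Summed over all members, the TMM-scaled level in Eed+/+ astrocytes was 21198, 24913, 18799, 24459 and 20818 CPM in replicates 1 to 5. In Eed-/- astrocytes it was 8777, 25462, 21131, 11271 and 17543 CPM, in Eed+/+ neurons 21085 and 4944, and in Eed-/- neurons 21574, 30384 and 15937. The 5 Eed+/+ astrocyte libraries lay close together, and the spread of the Eed-/- astrocytes (16837 ± 6879, SD, n = 5) reached over them on both sides. With the libraries within the limits alone, the Eed+/+ astrocytes averaged 22847 ± 2137 (n = 4), the Eed-/- astrocytes 21503 ± 5600 (n = 2) and the Eed-/- neurons 22632 ± 7282 (n = 3), and the lone Eed+/+ neuron library stood at 21085. With the RLE size factors of DESeq2 the astrocyte means were 19446 in Eed+/+ and 19351 in Eed-/-, so the difference between the TMM-scaled means (22037 and 16837) depended on the scaling.

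**Figure D1:**
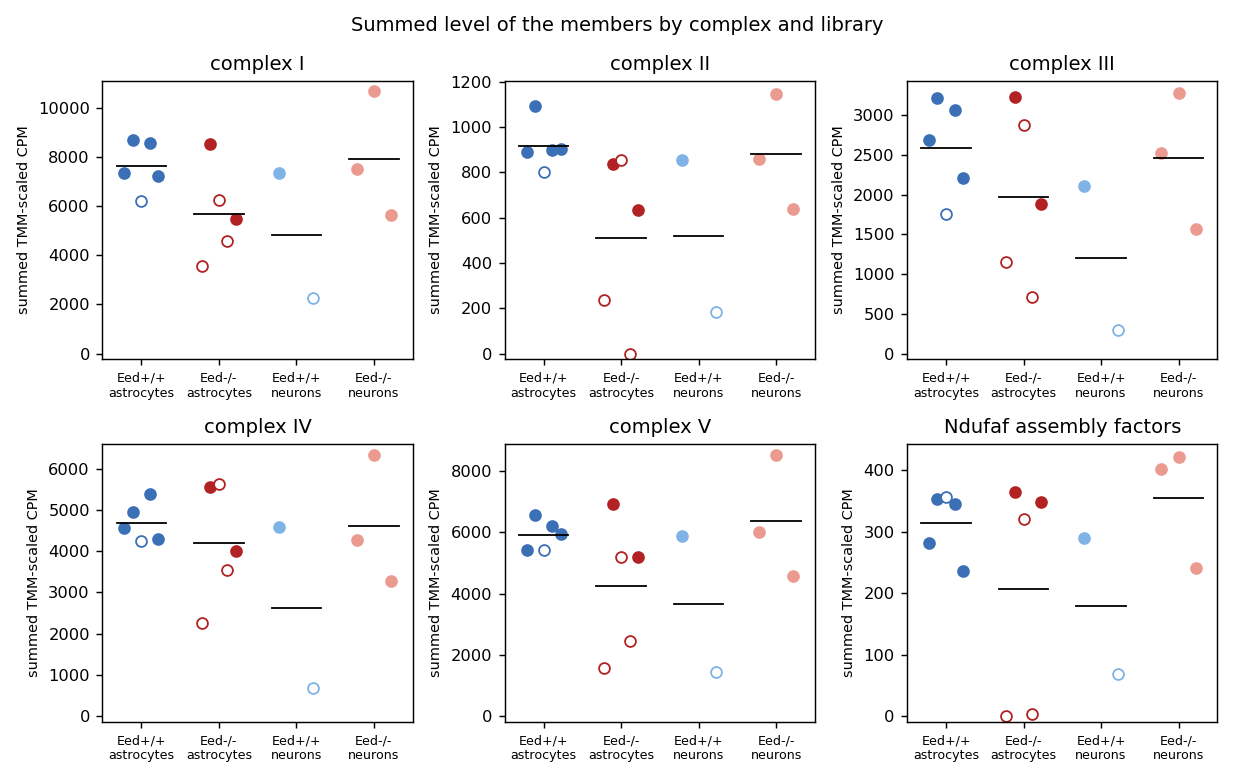
Summed TMM-scaled CPM (y axis) of the members of each complex and of the Ndufaf assembly factors, by group (x axis). Points are libraries, filled within the limits and open outside, and the line is the group mean. The open Eed+/+ neuron point is the lowest library in complexes I, III, IV and V, at 2278, 293, 674 and 1445.

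By complex, complex I summed to 7621 ± 1029 CPM in Eed+/+ astrocytes, 5682 ± 1890 in Eed-/- astrocytes and 7939 ± 2551 in Eed-/- neurons (SD, n = 5, 5 and 3). The 2 Eed+/+ neuron libraries gave 7363 and 2278. ATP synthase summed to 5909 ± 507, 4262 ± 2204 and 6376 ± 1999 in the same order, with 5888 and 1445 in Eed+/+ neurons. For complex IV the values were 4689 ± 478, 4199 ± 1424 and 4621 ± 1555, with 4581 and 674. Complex III gave 2586 ± 609, 1974 ± 1083 and 2460 ± 860, with 2110 and 293. Complex II gave 917 ± 106, 512 ± 379 and 881 ± 254, with 853 and 184. The assembly factors gave 315 ± 53.5, 208 ± 189 and 355 ± 99.9, with 290 and 68.7. In the plot of summed levels, the group means ran from complex I through ATP synthase, complex IV, complex III and complex II to the assembly factors. In Eed-/- astrocytes the order of ATP synthase and complex IV was not fixed. Complex IV had more reads than ATP synthase in replicates 1, 3 and 4, all outside the limits, and its mean was higher with RLE scaling (4991 against 4698 CPM) and in CPM without scaling (4406 against 4235). The genotypes overlapped in every complex with TMM and with RLE scaling. With RLE scaling the astrocyte means of complex I were 6714 in Eed+/+ and 6769 in Eed-/-, and those of complex IV 4142 and 4991, the opposite direction to TMM. In CPM without scaling, the astrocyte sums of complex II did not overlap, at 806 to 919 in Eed+/+ and 0 to 716 in Eed-/-. Per length, in TPM, they ran from 726 to 917 against 0 to 571, and those of ATP synthase from 4910 to 5778 against 2512 to 4798.

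Between genes, levels were compared per length, as TPM (length-scaled reads that sum to 1000000 in each library) computed from the union exon length of each gene, over the 10 libraries within the limits. The respiratory chain genes were among the highest expressed of the genome. Their median was 199.5 TPM against 2.21 over the 26668 genes with a read. Of the 93 members, 65 exceeded 100 TPM, 9 were under 10, 63 belonged to the 1000 highest genes and 10 to the 100 highest. Those 10 were Cox6a1, Cox8a, Cox6b1, Cox4i1, Ndufa2, Uqcr10, Uqcr11, Ndufa1, Ndufc2 and Cox7a2, which include 5 subunits of complex IV.

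**Figure D2:**
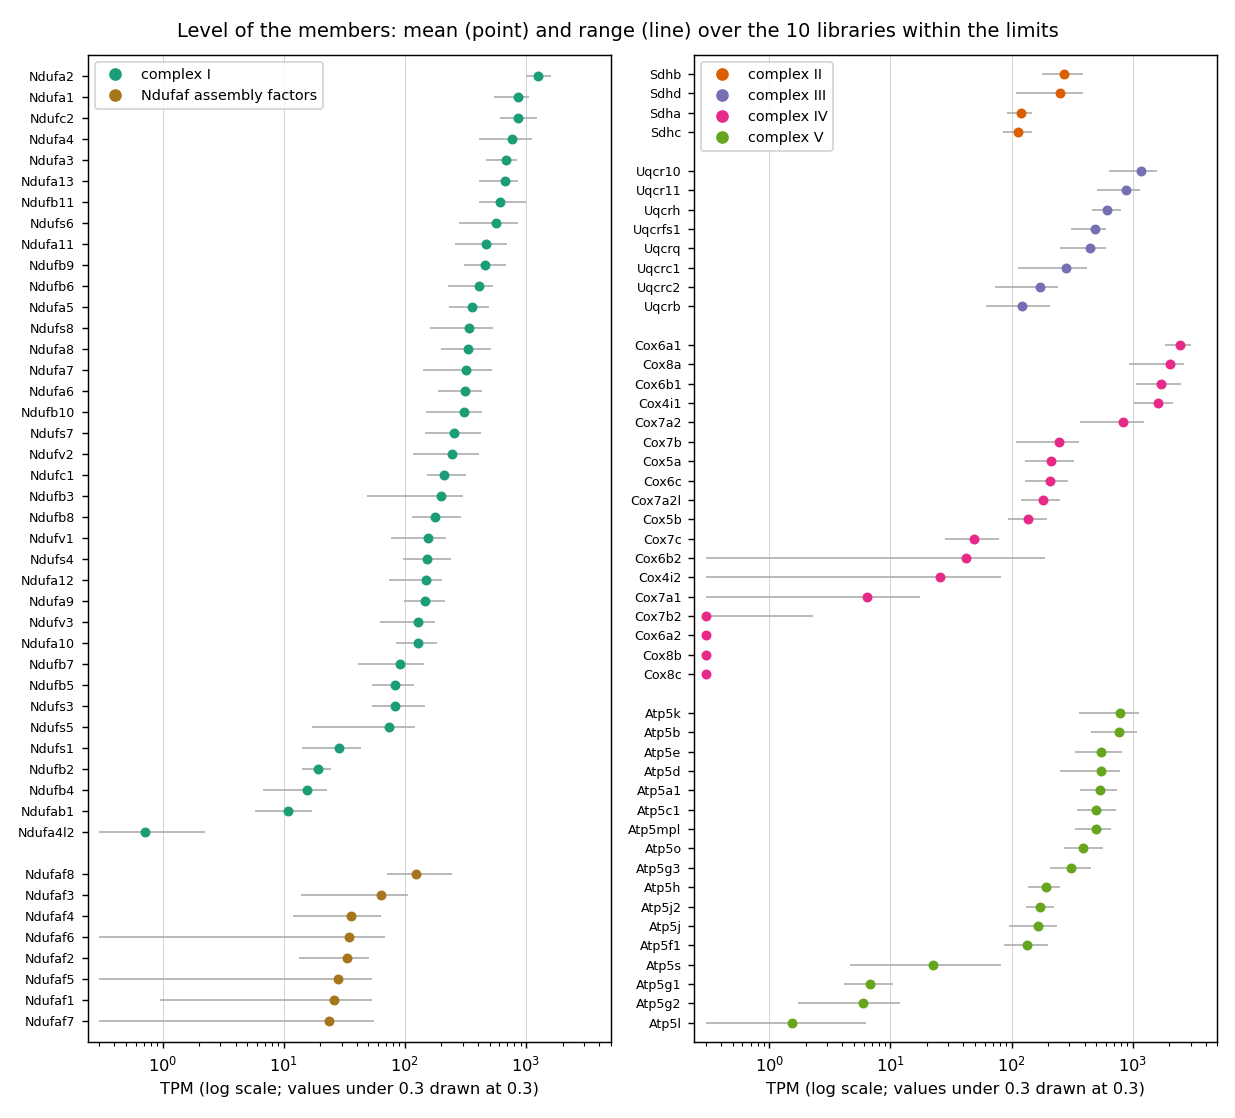
Level per length (x axis, TPM on a log scale) of the members, by complex, over the 10 libraries within the limits, with values under 0.3 drawn at 0.3. Points are means and lines run from the lowest to the highest library. Complex IV spans the widest range, from the forms with 0 reads to Cox6a1 at 2439 TPM.

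In complex I the small accessory subunit Ndufa2 led at 1262 TPM (998 to 1607, lowest and highest library), followed by Ndufa1 at 859 (544 to 1063) and Ndufc2 at 850 (604 to 1235). The 7 nuclear subunits of the catalytic core, which hold the flavin and the iron-sulfur clusters, ran from 28.3 for Ndufs1 to 340 for Ndufs8, with a median of 244. The other 31 members had a median of 309. Ndufs1, the largest subunit of the complex, was the lowest of the core in level per length.

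All 4 succinate dehydrogenase subunits were measured at moderate levels. The iron-sulfur subunit Sdhb stood at 273 TPM (178 to 385) and the membrane anchor Sdhd at 249 (108 to 386), above the flavoprotein Sdha at 120 (91.9 to 146) and the other anchor Sdhc at 112 (85.5 to 147). The libraries of Sdhb did not overlap with those of Sdha, whereas those of Sdhb and Sdhd did. By principal-transcript length Sdhb stood at 399 and Sdhd at 185, so the gap between them depended on the length used.

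In complex III, the small subunits Uqcr10 (1161 TPM, 640 to 1576) and Uqcr11 (883) led. Uqcrfs1, the Rieske iron-sulfur protein, stood at 485, and the core proteins Uqcrc1 and Uqcrc2 at 283 and 171. The 2 core proteins and the Rieske protein had a median of 283, the 5 other members one of 618. By principal-transcript length Uqcrc1 (528) stood above Uqcrfs1 (362), and Uqcrh (1045) above Uqcr11 (950), so these orders depended on the length used.

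Complex IV held the highest members. Cox6a1 stood at 2439 TPM (1852 to 3006), Cox8a at 2014 (933 to 2636), Cox6b1 at 1713 (1056 to 2507) and Cox4i1, which encodes the largest nuclear subunit, at 1620.1 (1025 to 2134). Their ranges overlapped, so their order was not fixed beyond the spread. In counts scaled by TMM and not by length, Cox6a1 measured 828, 882, 611, 923 and 1015 CPM in Eed+/+ astrocytes and 477, 1034, 782, 738 and 703 in Eed-/- astrocytes. It measured 765 and 278 in Eed+/+ neurons and 660, 1001 and 674 in Eed-/- neurons. The groups overlapped, and the lowest value was that of Eed+/+ neuron replicate 2.

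In ATP synthase, the 5 subunits of the catalytic head and stalk (Atp5a1, Atp5b, Atp5c1, Atp5d and Atp5e) ran from 500 to 768 TPM with a median of 543, and the 12 other members from 1.54 for Atp5l to 785 for Atp5k, with a median of 168. The catalytic subunit Atp5b stood at 768 (452 to 1086), and its partner Atp5a1, which is needed in equal number, at 533 (363 to 737). Among the 3 genes for the membrane ring subunit c, Atp5g3 stood at 308, Atp5g1 at 6.84 and Atp5g2 at 5.97. By principal-transcript length the head and stalk ran from 507 for Atp5a1 to 1718 for Atp5e, with Atp5b at 1270. The 12 other members then ran from 5.33 for Atp5g1 to 974 for Atp5k, and the gap between the 2 sets depended on the length used.

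The Ndufaf assembly factors had a lower median than the complex they help to build, at 34.0 TPM against 250 for complex I, but the ranges overlapped. They ran from 23.5 for Ndufaf7 to 123 for Ndufaf8 (71.5 to 244), which stood above subunits such as Ndufs1 (28.3) and Ndufs3 (82.4). By principal-transcript length Ndufs3 (128) stood above Ndufaf8 (97.6), and Ndufs1 (64.4) stayed below it. With the length of the principal transcript in place of the union of exons, the leader changed to Ndufa4 in complex I (1286), Cox4i1 in complex IV (2453), Atp5e in ATP synthase (1718), and Ndufaf2 among the assembly factors (109 against 97.6 for Ndufaf8), and the lowest assembly factor to Ndufaf1 (20.2). Uqcr10 (1165) and Sdhb stayed first. Ndufa4 is counted here with complex I by its symbol, and its protein is known as a subunit of complex IV.

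Several complex IV subunits, Ndufa4 and ring subunit c are encoded by more than 1 gene, and in each family 1 form prevailed. Cox4i1 took 94.9 to 100% of the per-length level of its family in the 10 libraries within the limits, and Cox4i2, its lung-enriched and oxygen-regulated alternative, the rest. Cox7a2 took 98.0 to 100% against the heart and muscle form Cox7a1. Cox6a1 and Cox8a took 100%. Their alternatives, the heart and muscle forms Cox6a2 and Cox8b and the testis form Cox8c, had 0 reads in all 15 grouped libraries, which allows up to 0.145 CPM over the 15 libraries together and 0.944 to 14.2 CPM in a single library (3 reads). Ndufa4 took 99.7 to 100% against Ndufa4l2, and in the subunit c family Atp5g3 took 92.8 to 97.7%, Atp5g1 1.62 to 3.03% and Atp5g2 0.677 to 4.12%. Cox7b took 99.4 to 100%, and its testis form Cox7b2 had 1 read in Eed+/+ neuron replicate 1 and 19 reads in Eed-/- astrocyte replicate 3, where it made up 48.6% of the pair.

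The highest share of a minor form within the limits was that of Cox6b2, and it came from 1 library. Cox6b1 is the general form of this intermembrane-space subunit and Cox6b2 is known from testis. Within the limits Cox6b1 took 88.7 to 100% and Cox6b2 up to 11.3%, or up to 17.3% by principal-transcript length. The highest share belongs to Eed-/- astrocyte replicate 5, and Cox6b2 took at most 3.21% in the other 9 libraries. Over each group's libraries Cox6b2 had a mean share of 0.594% (Eed+/+) and 4.42% (Eed-/-) among astrocytes, and of 0.322% (Eed+/+) and 2.56% (Eed-/-) among neurons.

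Only uniquely aligned reads were counted, and the part of this in the levels was not tested. For each member the share of its 50-base transcript stretches that also occur in another annotated gene was computed. Of the 93 members, 45 shared none and had a median of 249 TPM, 31 shared up to 20% (median 211), 13 shared 20 to 50% (median 148) and 4 shared over 50% (median 27.5). By principal-transcript length the 4 medians were 245.5, 455, 186 and 45.2 TPM, so the order of the first 2 depended on the length used. The 4 were Atp5g2 (87.4%), Atp5l (84.8%, with 14 other genes, 12 of them pseudogenes), Cox7c (53.0%) and Atp5o (50.3%). Most of the sequence of Atp5l and Atp5g2 is not unique, and their low values are uncertain as levels. Atp5o stood at 389 TPM. The 7 annotated pseudogenes named after members held few reads, 20 for Uqcrh-ps2 against 7160 for Uqcrh. In addition, 32 members have exons that overlap another gene, and the counting, which used no strand, left out reads that overlapped more than 1 gene (0.934 to 5.66% of the uniquely aligned reads of a grouped library). The levels of those members can therefore be too low.

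**Figure D3:**
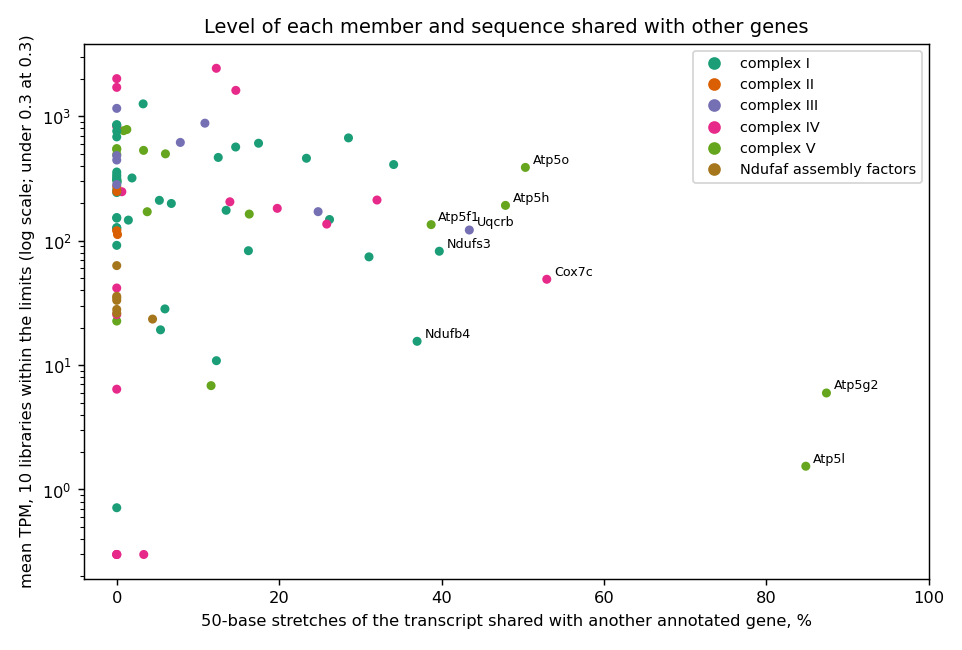
Mean level per length over the 10 libraries within the limits (y axis, TPM on a log scale, values under 0.3 drawn at 0.3) of each member against the percentage of its 50-base stretches found in another annotated gene (x axis). Each point is a member. The 4 members over 50% run from 1.54 to 389 TPM with a median of 27.5, and the 45 members at 0% have a median of 249 TPM.

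The members varied little between libraries of a group. For genes with a mean of more than 10 reads, the SD of log2(CPM + 1) within groups over the 10 libraries within the limits had a median of 0.43 over 85 members, against 0.84 over 11464 genes. Members were also higher, with a median level of 7.68 on that log2 scale against 5.09. Ndufa2 was the steadiest member at 0.21, and the widest were Ndufaf7 (1.98), Cox4i2 (1.75) and Ndufaf6 (1.70). Of the members, 82 to 90 had reads in a library within the limits and 39 to 80 in the others, and 28 had reads in all 15.

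The 13 protein genes of the mitochondrial genome took 2.09 to 3.65% of reads on genes within the limits, or 0.916 to 1.97 reads per read on the nuclear members. Outside the limits this ratio ran from 0.181 in Eed+/+ neuron replicate 2 to 8.44 in Eed-/- astrocyte replicate 4.

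**Figure D4:**
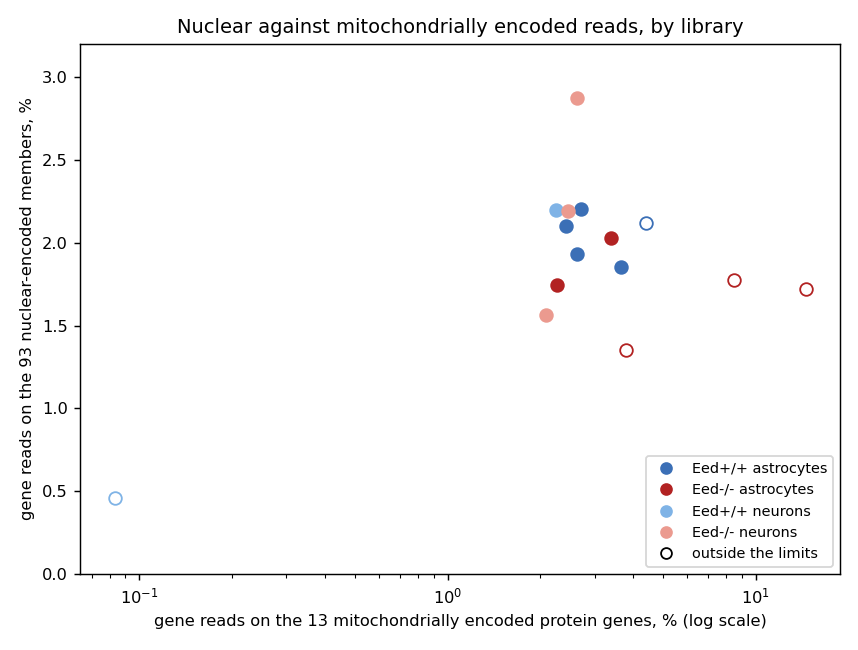
Share of reads on genes taken by the 93 nuclear members (y axis, %) against that of the 13 mitochondrially encoded protein genes (x axis, % on a log scale). Each point is a library, coloured by group, filled within the limits and open outside. The filled points stay between 1.56 and 2.88% for the nuclear members and between 2.09 and 3.65% for the mitochondrial genes.

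The effect of Eed loss was examined in astrocytes first. No respiratory chain gene passed the test. With edgeR's quasi-likelihood test at an adjusted p of 0.05, 0 of 84 tested members were called (0 also at an unadjusted p of 0.05), beside 0% of 8956 genes. At an unadjusted p under 0.05 stood 1.21% of all genes in edgeR. DESeq2 called 0 (2 unadjusted, 2.44% against 3.45% of all genes), and so did limma-voom (1 unadjusted, 1.19% against 4.08%). The median log2 fold change of the members was -0.44, against -0.54 over all genes, and 65 of 84 were negative. By complex the medians were -0.50 for complex I, -0.82 for complex II, -0.31 for complex III, -0.08 for complex IV, -0.37 for ATP synthase and -0.53 for the assembly factors. The median SE was 1.25, and the 95% intervals of 0 members stayed within a 4-fold change in either direction. Without the library labelled Eed+/+ astrocyte replicate 3, the median was -0.40 and 0 members were called. The 3 Eed-/- astrocyte libraries with microglial or erythroid markers entered this comparison, and the part of those cells in the result was not tested.

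With the libraries within the limits, 4 Eed+/+ against 2 Eed-/-, the median difference of the members shrank to -0.13, against -0.02 over all genes, with a median SE of 0.39. Again 0 of 86 members were called, and 1 had an unadjusted p under 0.05 (1.16%, against 4.04% of all genes). The 95% interval lay within a 2-fold change for 28 members (32.6%, against 3.99% of 12070 genes) and within a 4-fold change for 72 (83.7%, against 34.3%). The 28 included Cox4i1, Cox5a, Cox6a1, Cox6b1, Cox6c and Cox8a of complex IV, Atp5a1, Atp5c1 and Atp5g3 of ATP synthase, Uqcrfs1 and Uqcrh of complex III, and Sdha and Sdhc of complex II. For those genes a change of more than 2-fold lay outside the interval in these 6 libraries. None of the 8 assembly factors had an interval that narrow, and only 2 stayed within 4-fold.

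Within the limits the member with the lowest p was Cox6b2, the testis-associated form of the Cox6b subunit, on chromosome 7 (chr7:4751792-4753094, GRCm38, - strand), whose upstream sequence is printed above. It measured 14.7, 2.61, 0, 9.23 and 0 CPM in Eed+/+ astrocytes (28, 7, 0, 20 and 0 reads) and 0, 25.9, 79.7, 0 and 99.1 CPM in Eed-/- astrocytes (0, 39, 27, 0 and 98 reads). Eed-/- replicates 2, 3 and 5 were above all Eed+/+ libraries, and replicates 1 and 4 were at 0, so the groups overlapped. The log2 fold change was 2.98 ± 1.71 (SE), with an adjusted p of 1 in edgeR. Within the limits it was 3.23 ± 1.32, with an unadjusted p of 0.0376 and an adjusted p of 1 in edgeR, and its 95% interval ran from 0.23 to 6.23. In those 6 libraries the 2 Eed-/- values (25.9 and 99.1) lay above the 4 Eed+/+ values.

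The other members with the lowest p in each direction gave no call either. Ndufaf6, an assembly factor with the lowest p of all members when every library was used (0.0659 unadjusted, adjusted p of 1 in edgeR), measured 6.81, 37.3, 143, 27.7 and 0 CPM in Eed+/+ and 0, 12.6, 0, 0 and 9.10 CPM in Eed-/- astrocytes. Its log2 fold change was -3.19 ± 1.73 (SE; adjusted p of 1 in edgeR) and moved to -0.72 ± 1.70 within the limits. The high value of 143 belongs to the library labelled Eed+/+ replicate 3, outside the limits, and the groups overlapped. Ndufaf3, another assembly factor, measured 52.4, 52.6, 108, 98.7 and 26.3 CPM against 0, 15.3, 0, 0 and 58.7. Its log2 fold change was -2.14 ± 1.59, and -0.64 ± 0.76 within the limits. Ndufaf1, also an assembly factor, had a difference in the other direction. It measured 12.04, 37.0, 3.71, 8.76 and 0.693 CPM against 0, 49.2, 186, 0 and 6.07, with a log2 fold change of 2.04 ± 1.63, and 0.92 ± 1.41 within the limits. The value of 186 belongs to Eed-/- replicate 3, outside the limits, and the groups overlapped.

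Atp5d, the delta subunit of the ATP synthase stalk, measured 497, 602, 698, 544 and 727 CPM against 6.77, 636, 248, 3.09 and 232. Its lowest values were those of Eed-/- replicates 1 and 4. The log2 fold change was -1.42 ± 1.13, and -0.44 ± 0.43 within the limits.

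Ndufs5 was the only member of the 84 whose genotypes did not overlap in astrocytes, and it was named after its values were seen. This complex I subunit measured 42.4, 45.2, 31.6, 26.3 and 48.5 CPM in Eed+/+ and 0, 21.9, 23.6, 0 and 18.2 CPM in Eed-/- astrocytes. Groups without overlap and lower in Eed-/- made up 1.19% of the members and 1.72% of all genes, and groups higher in Eed-/- 0 members and 0.0112% of genes.

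**Figure D5:**
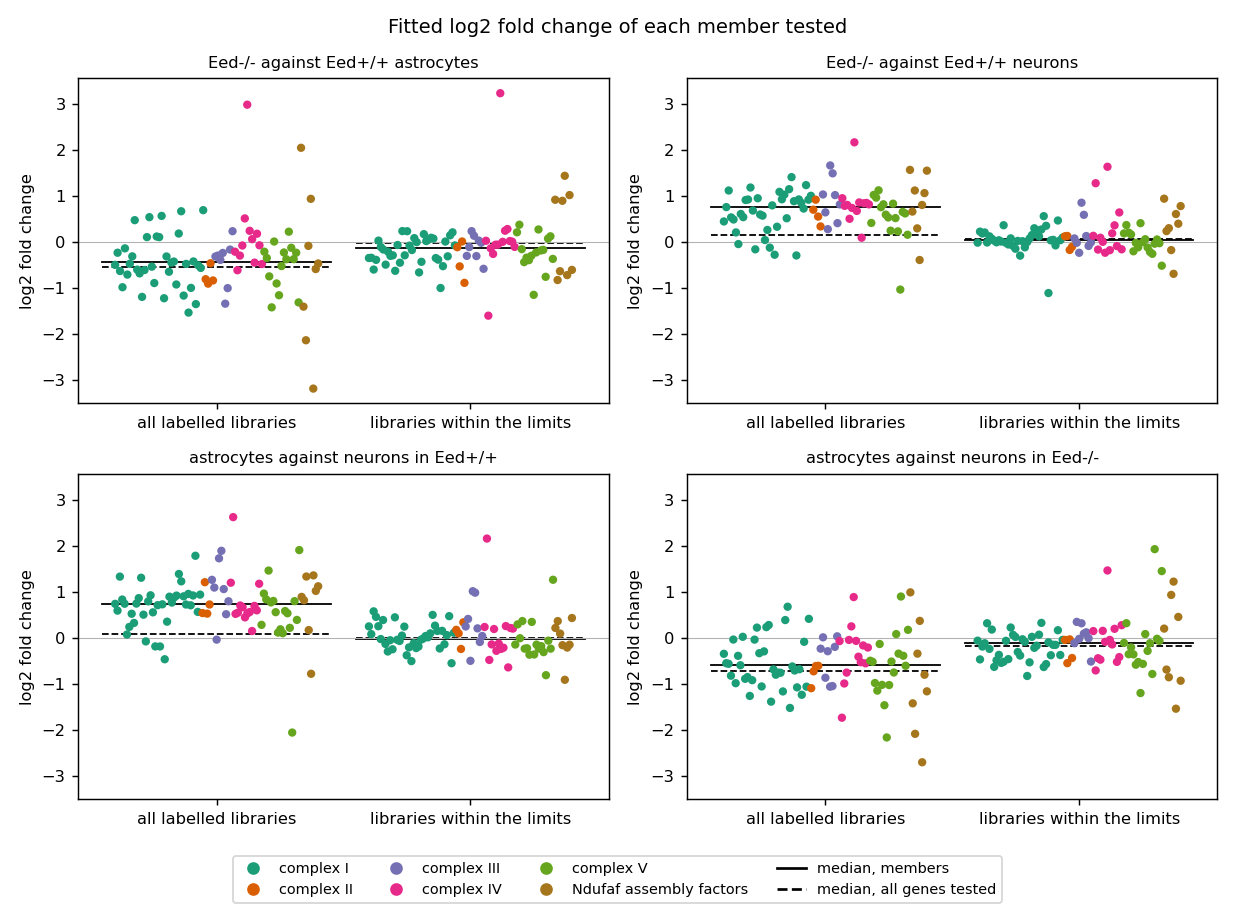
Fitted log2 fold change (y axis) of each tested member, coloured by complex, between genotypes in astrocytes and neurons and between cell types in each genotype, with all grouped libraries and with the libraries within the limits. Points are members, the solid line is their median and the dashed line the median over all genes tested. The members' median moved from -0.44 to -0.13 between genotypes in astrocytes and from 0.75 to 0.04 in neurons when the libraries outside the limits were left out.

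In neurons, respiratory chain genes had higher values in the Eed-/- libraries, but the difference came with 1 Eed+/+ library. EdgeR called 0 of 85 members (0 at an unadjusted p of 0.05 as well), beside 0% of 11862 genes, and DESeq2 and limma-voom called 0, with 2 and 3 members at an unadjusted p under 0.05. Of all genes 7.27% stood under that p in edgeR, 9.46% in DESeq2 (2.35% of members) and 7.75% in limma-voom (3.53% of members). The median log2 fold change was 0.75 against 0.15 over all genes, and 78 of 85 members were positive. The medians by complex ran from 0.61 for ATP synthase to 0.93 for the assembly factors. Without Eed+/+ replicate 2, which leaves 1 Eed+/+ library that is assumed to vary like the 3 Eed-/- libraries, the median was 0.04 against 0.07, with 52 of 87 members positive and 0 called (0.00781% of 12803 genes). Without Eed+/+ replicate 1, which leaves replicate 2 alone, 43 of 87 members were called by edgeR, all higher in Eed-/-, with a median of 2.79, beside 20.6% of 12635 genes called in either direction, 11.7% higher and 8.86% lower. That count was drawn from every complex (18 genes of complex I, 2 of complex II, 5 of complex III, 9 of complex IV, 7 of ATP synthase and 2 assembly factors) and rests on the library with 31.0% unique alignment.

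The named members in neurons gave no call with all grouped libraries, and without Eed+/+ replicate 2 their values moved by different amounts. Cox6b2 measured 6.98 and 0 CPM in Eed+/+ and 23.5, 23.1 and 20.1 CPM in Eed-/- neurons (13 and 0 reads against 30, 45 and 32). The 3 Eed-/- values were close together and above both Eed+/+ values, with a log2 fold change of 2.16 ± 1.04 (SE; adjusted p of 0.686 in edgeR) and 1.63 ± 0.94 within the limits (adjusted p of 1 in edgeR). Uqcrc1, a core protein of complex III, measured 302 and 31.2 CPM against 656, 764 and 241. Its groups overlapped, and the log2 fold change of 1.66 ± 0.89 became 0.85 ± 0.69. Ndufaf8, an assembly factor, measured 36.5 and 0 CPM against 55.5, 99.6 and 34.6, with a log2 fold change of 1.55 ± 0.99 that became 0.78 ± 0.73. On the negative side, Atp5l measured 3.76 and 12.5 CPM against 4.69, 0.513 and 6.29 (-1.03 ± 1.30, and -0.04 ± 1.80 within the limits). Ndufb7, a complex I subunit, measured 231 and 293 CPM against 206, 318 and 179 (-0.28 ± 0.62, and -0.0022 ± 0.605). Ndufaf5, an assembly factor, measured 31.1 and 15.6 CPM against 20.3, 26.2 and 11.96 (-0.39 ± 0.81), and its difference was larger within the limits, at -0.69 ± 0.79.

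Groups that did not overlap and were higher in Eed-/- neurons numbered 5 members (Cox6b2, Cox7c, Ndufa2, Ndufaf2 and Ndufaf6, named after their values were seen), 5.88% of those tested and below the 15.6% of all genes. There were 0 members on the lower side, against 7.72% of genes. Within the limits Cox6b2 was higher in the Eed-/- than in the Eed+/+ libraries in both cell types (2 against 4 astrocyte and 3 against 1 neuron libraries). It was named for its low p in these same data, and the share of all genes that do so was not computed. With all grouped libraries, Cox6b2 passed the test in neither cell type.

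Between cell types, no member passed the test. Over both genotypes, edgeR called 0 of 87 members (0 at an unadjusted p of 0.05), beside 0.015% of 13367 genes, and DESeq2 and limma-voom also called 0, with 0 at an unadjusted p under 0.05, where 5.51% (edgeR), 6.18% (DESeq2) and 12.9% (limma-voom) of all genes stood. The median log2 fold change of astrocytes against neurons was 0.01 against -0.34 over all genes, with 48 members positive. The median SE was 0.96, and the 95% intervals of 0 members lay within a 2-fold change. Without Eed+/+ neuron replicate 1 the member median was 1.08. By complex the median ran from -0.15 for the assembly factors to 0.41 for complex III. Within the limits the member median was -0.11 against -0.16, with 0 members called. There the 95% interval lay within a 2-fold change for 43 of 87 members (49.4%, against 6.11% of 14445 genes), all 4 subunits of complex II among them, and within 4-fold for 76 (87.4%, against 39.1%). The members were also higher expressed than most genes, as given above. The astrocyte marker sum of the neuron libraries, given above, exceeded the neuron marker sum in every one of them. It stands beside this comparison, and its part in the result was not tested.

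Among the members with the lowest p in this comparison were Ndufv1 and Uqcrc1 on the astrocyte side and Atp5g2, Ndufb7 and Ndufaf6 on the neuron side. Ndufv1, the flavoprotein that binds NADH, measured 230, 271, 559, 224 and 97.6 CPM in Eed+/+ astrocytes and 0, 294, 490, 0 and 158 in Eed-/- astrocytes. It measured 143 and 15.6 CPM in Eed+/+ neurons and 200, 283 and 119 in Eed-/- neurons. The cell types overlapped, with a log2 fold change of 0.85 ± 0.98 (SE; adjusted p of 1 in edgeR) and 0.32 ± 0.41 within the limits. Uqcrc1 measured 724, 800, 243, 579 and 431 CPM in Eed+/+ astrocytes and 352, 1057, 520, 0 and 326 in Eed-/- astrocytes, beside the neuron values above. Its log2 fold change was 0.72 ± 0.88, and 0.66 ± 0.45 within the limits. Ndufb7 measured 218, 264, 113, 232 and 127 CPM in Eed+/+ and 396, 176, 59.0, 0 and 88.0 CPM in Eed-/- astrocytes, with a log2 fold change against neurons of -0.58 ± 0.93 and, within the limits, -0.51 ± 0.36.

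Split by genotype, the cell-type contrast pointed up in Eed+/+ and down in Eed-/- libraries, again with the same poorly aligned libraries. In Eed+/+, edgeR called 0 of 87 members (0 at an unadjusted p of 0.05), beside 0.00748% of 13367 genes, with a median log2 fold change of 0.73 against 0.08 and 80 members positive. Without the library labelled Eed+/+ astrocyte replicate 3 this median was 0.78. It was far larger without Eed+/+ neuron replicate 1, as given below. DESeq2 called 0 (0 unadjusted, against 3.48% of all genes) and limma-voom 0 (12 unadjusted, 13.8% against 7.5% of all genes, all higher in astrocytes). Of all genes, 2.29% had an unadjusted p under 0.05 in edgeR. In Eed-/-, edgeR called 0 of 87 (0 at an unadjusted p of 0.05), beside 0.0598% of genes, with a median of -0.60 against -0.72 and 71 members negative. DESeq2 called 0 (0 unadjusted, against 5.83% of all genes) and limma-voom 0 (5 unadjusted, 5.75% against 13.4%). The share of all genes under that p was 7% in edgeR. Within the limits these medians were -0.02 against -0.01 in Eed+/+ (4 libraries against 1) and -0.12 against -0.17 in Eed-/- (2 against 3). The contrasts share no library with each other, but each shares its libraries with the genotype comparisons.

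Named members of the Eed+/+ contrast included both core proteins of complex III. Uqcrc2 measured 210, 245, 150, 316 and 262 CPM in Eed+/+ astrocytes and 126 and 0 in Eed+/+ neurons, without overlap, with a log2 fold change of 1.89 ± 1.64 (SE; adjusted p of 1 in edgeR) and 0.98 ± 0.58 within the limits. The fold of Uqcrc1 was 1.73 ± 1.42 and 1.01 ± 0.73. In all, 5 members were higher in every Eed+/+ astrocyte library than in both neuron libraries (Atp5d, Cox4i1, Ndufa12 and Uqcrc2 among them, named after their values were seen), 5.75% of those tested against 4.14% of all genes, and 0 were lower, against 9.29%. In Eed-/-, 4 members were lower in every astrocyte library (Atp5g2, Atp5g3, Ndufaf2 and Ndufaf6), 4.60% against 11.4% of all genes, and 0 were higher, against 0.314%. Ndufaf6 measured 35.2, 32.3 and 27.7 CPM in Eed-/- neurons, beside 0 to 12.6 in Eed-/- astrocytes, with a log2 fold change of -2.70 ± 1.61 (adjusted p of 0.902 in edgeR) and -1.54 ± 1.40 within the limits.

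Whether the effect of genotype differed between the cell types was tested as an interaction. EdgeR called 0 of 87 members (0 at an unadjusted p of 0.05), beside 0.0524% of 13367 genes. DESeq2 called 0 (0 unadjusted, against 3.6% of all genes) and limma-voom 0 (25 unadjusted, 28.7% against 10.7% of all genes, all 25 negative). The share of all genes under that p was 3.61% in edgeR. The median interaction was -1.27 on the log2 scale against -0.79 over all genes, and 81 of 87 were negative. Within the limits it was -0.16 against -0.19. Leaving out single libraries also moved the median interaction in both directions, most without Eed+/+ neuron replicate 1, as given below. Cox6b2, with a positive difference in both cell types, was not among the members with the lowest p. Those were Ndufaf6 (-4.06 ± 2.69), Cox4i2 (-4.36 ± 2.97) and Atp5d (-2.61 ± 1.82) on the negative side and Atp5l (2.95 ± 2.70), Ndufaf5 (1.15 ± 2.47) and Ndufb5 (0.47 ± 1.86) on the positive side, all with an adjusted p of 1 in edgeR. The 95% intervals of 0 members stayed within a 4-fold difference, and those of 52 of 87 (59.8%, against 9.51% of all genes) did so within the limits.

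Genes that work beside the chain gave no call. The list held 79 nuclear genes, 39 further assembly factors, 13 genes of ubiquinone synthesis, 13 of the citric acid cycle, 12 regulators of mitochondrial gene expression, and Cyc1 and Cycs, the cytochromes of complex III and of the carrier step. All 79 were in the files, and 62 were tested between genotypes in astrocytes, 73 in neurons and 75 in the other comparisons. EdgeR called 0 of them in either direction in each of the 6 comparisons, with 1 to 4 genes at an unadjusted p under 0.05. Of all genes, 1.21 to 7.27% stood under that p in these edgeR fits. The log2 fold change was positive for 17 of 62 in astrocytes, 52 of 73 in neurons, 30 of 75 between cell types, 48 of 75 in Eed+/+, 11 of 75 in Eed-/- and 9 of 75 in the interaction. In neurons the fold change was positive for 11 of 13 genes of the citric acid cycle (median 0.60), 28 of 34 assembly factors (median 0.75) and 3 of 11 regulators (median -0.15), beside 6571 of all 11862 genes (median 0.15). Without Eed+/+ replicate 2 these were 10 of 13 (median 0.22), 25 of 36 (median 0.15) and 5 of 11 (median -0.14), beside 6996 of 12803 (median 0.07). Within the limits 30 of 73 genes of the list were positive in astrocytes and 50 of 75 in neurons, with 0 called. There 5 genes and 1 gene had an unadjusted p under 0.05 in edgeR, beside 4.04 and 2.52% of all genes. In the other 4 comparisons within the limits 0 to 9 of 77 genes were under that p, the 9 between cell types in Eed-/-, where 7.25% of all genes were, and 0 were called. Cyc1 had a log2 fold change of 0.05 ± 1.17 between genotypes in astrocytes (adjusted p of 1 in edgeR).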

How the data were processed

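Few-cell Smart-seq2 libraries of polyA RNA from sorted green neocortical cells were sequenced by the authors, aligned with STAR to GRCm38/mm10 and deposited as raw counts of uniquely aligned reads per Ensembl gene, 1 file per library. No annotation release is named for the counts. The column without strand was used, since 46.7 to 52.7% of the reads fell on the first strand. Its 4 lines of totals were left out of library sizes. Reads without a gene feature were 8.55 to 71.6% of the uniquely aligned reads. Depth was 211736 to 3178529 reads on genes.

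Identifiers were matched to GENCODE M21 (53274 of 53379). The members and lists were chosen with earlier results of these data known. Each comparison was fitted across all genes with edgeR 4.0.16 (TMM, filterByExpr, robust quasi-likelihood test, two-sided, Benjamini-Hochberg adjustment, threshold 0.05), the 2 genotype comparisons on their own cell type and the others on all 15 grouped libraries. DESeq2 1.42.0, limma 3.58.1 (voom with quality weights), RLE size factors, other filters, a presumed run, replicate block and leave-one-out fits were alternatives. Named genes were the 3 with the lowest p in each direction per comparison, and values of 1 member are not reported here. TPM used union exon lengths. Scripts ran in R 4.3.3 and Python 3.11.15 and were tested on simulated data. The simulation had a smaller spread than these libraries, so it does not show what could be detected here. Each library came from 1 animal, and nothing given here ties the astrocyte and neuron libraries to each other. The authors left some of these libraries out of their own analysis by principal components or replicate correlation. They are not named there, and all 15 grouped libraries were kept, with fits within the limits beside them. The library whose labels name both cell types was left out of every group.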

Additional observations from a re-analysis of the deposited data

Results flagged for a closer look

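In the astrocyte groups of 5 libraries, 46 sets of values (summed levels and named genes) were examined for a library far from the others by Dixon's ratio, which chance alone passes in about 1 in 20 groups, and 5 were found. Ndufaf1, an assembly factor of complex I, stood at 186 TMM-scaled CPM in Eed-/- replicate 3, where the other 4 libraries ran from 0 to 49.2. Ndufaf6 stood at 143 CPM in the library labelled Eed+/+ replicate 3, against 0 to 37.3. Both of these libraries are outside the limits. Ndufaf3 stood at 58.7 CPM in Eed-/- replicate 5, against 0 to 15.3. Atp5l, most of whose sequence is shared with other genes, stood at 24.6 CPM in Eed-/- replicate 2, against 0 to 5.90. Cox4i2 stood at 10.1 CPM in Eed-/- replicate 5 and at 0 in the other 4. In the 3 cases where a library within the limits was high, Eed-/- replicates 1 and 4 were at 0, and these hold few reads on genes (383061 and 211736).

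The Eed-/- library that entered no group had a member share of 1.60% of its reads on genes (95% Wilson interval 1.54 to 1.65%), data that no comparison used.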

How the results depend on the processing

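With all grouped libraries and within the limits, edgeR called 0 to 0.0598% of all genes in the 6 comparisons. Over those 6 comparisons, the count of called members was 0 in all 76 alternative fits with every library, another tool, filter, scaling or the limits, and in 74 of 75 fits that left out 1 library. The exception was the neuron comparison, with 0 to 43 members called, 43 without Eed+/+ replicate 1. The member medians without 1 library ran from 0.045 to 2.79 in neurons, from -0.29 to 1.08 between cell types, from -0.021 to 2.60 in Eed+/+ and from -3.32 to -0.56 in the interaction; the values 2.79, 1.08, 2.60 and -3.32 came from the fits without Eed+/+ neuron replicate 1. In that neuron fit Cox6b2, Uqcrc1 and Ndufaf8 passed the threshold of edgeR's test. Of 145 medians, 126 had the sign of the reported value. With RLE size factors the Eed+/+ astrocyte sums were 4142 for complex IV, 5233 for ATP synthase and 19446 for all members, against 4991, 4698 and 19351 in Eed-/-, and 186 of 189 summed levels moved by less than 1 SD. The labels name no sequencing run, and 2 presumed runs were told apart by the numbering of the deposited counts. All neuron libraries fell in the first, with Eed+/+ astrocyte replicates 1 and 2 and Eed-/- astrocyte replicates 1 to 3. The fits with the first presumed run only and the limits, added after seeing the data, are among the 76 above and left 1 library in some groups. Whether the replicate numbers pair the samples is not stated. Same-numbered libraries correlated at -0.24 to 0.15 after group means were removed, and groups this small cannot settle the pairing. Of 10 astrocyte libraries, 3 correlated best with their own number across genotypes. With the replicate block, 0 members were called in each comparison, and the medians became -0.95 in astrocytes and 1.29 in neurons. The biological coefficient of variation was 1.38 in astrocytes and 0.582 in neurons, and 0.836 and 0.479 within the limits.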

Other observations

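The Eed-/- library whose labels name both cell types had 221456 reads on genes and 17.7% unique alignment. The respiratory chain members took 3534 reads, and 40 of the 93 had at least 1. Complex I held 41.5% of these reads, complex III 17.5% and complex II 0.0849%. The 13 mitochondrially encoded protein genes took 3.82% of its reads on genes, 2.40 reads per read on the nuclear members.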
